A study of Mus musculus with 2 samples.

Results

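The microRNA (miRNA) genes Mir99a, Mir99b, Mir100, Mir125a, Mir125b-1 and Mir125b-2 were described in the neural tube, the embryonic tissue that becomes the brain and spinal cord. They were chosen by gene name, not by their values, as all 6 members of the Mir99, Mir100 and Mir125 families among the 1973 miRNA genes counted. Short RNAs were sequenced from healthy B6NCrl mouse embryos at 15.5 days of age, with males and females pooled and neural tube dissected. The samples formed 1 group of 2 biological replicates with no treatment or mutation, library 1 from a pool of 78 embryos and library 2 from a pool of 62. A pool gives an average over its embryos, so the spread between animals was not measured.

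miRNAs are cut from hairpin precursors as a 5′ arm (5p) and a 3′ arm (3p), and the arm loaded into an Argonaute protein pairs with messenger RNAs mainly through its seed, bases 2 to 8. In mouse the families sit in 3 paralogous loci, each with a Mir99 or Mir100 gene, a let-7 gene and a Mir125 gene in that order. miR-125 is the vertebrate counterpart of Caenorhabditis elegans lin-4, the founding miRNA of the heterochronic pathway that times development, and in mammals both miR-125 and let-7 target Lin28 messenger RNAs. miR-99 and miR-100 are known from human cells to target mTOR, and belong with miR-10 to an ancient animal miRNA family.

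The 5p sequences are shown first because they define the families. They are from RefSeq on GRCm38.p6, the assembly of mm10, written 5′ to 3′ with the seed in capitals.
miR-99a-5p: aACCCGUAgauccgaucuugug
miR-100-5p: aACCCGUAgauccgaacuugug
miR-99b-5p: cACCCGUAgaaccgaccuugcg
miR-125a-5p: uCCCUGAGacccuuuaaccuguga
miR-125b-5p: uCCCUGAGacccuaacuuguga
The 6 genes thus carried 2 seeds, ACCCGUA in miR-99a, miR-100 and miR-99b, and CCCUGAG in miR-125a and miR-125b. Counted from 1 at the 5′ end of miR-99a-5p, miR-100-5p differed from it by 1 base, U16A. miR-99b-5p differed from miR-99a-5p by 4 bases, A1C, U11A, U16C and U21C, all outside the seed. miR-125a-5p (24 bases) and miR-125b-5p (22 bases) were identical over their first 13 bases.

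The 3p sequences are shown because they tell the 2 Mir125b genes apart, which their 5p sequence does not.
miR-125b-1-3p: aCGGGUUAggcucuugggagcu
miR-125b-2-3p: aCAAGUCAgguucuugggaccu
miR-125a-3p: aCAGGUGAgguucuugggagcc
miR-99a-3p: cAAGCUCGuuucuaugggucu
miR-99b-3p: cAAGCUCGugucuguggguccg
miR-100-3p: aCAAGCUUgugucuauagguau
The 3p arms of Mir125b-1 and Mir125b-2 differed at 5 of 22 positions. Of the 11 distinct mature sequences of the 6 genes, 1 was found in more than 1 of 2202 GENCODE M21 miRNA precursors: miR-125b-5p, with an exact match in those of both Mir125b-1 and Mir125b-2. These precursors shared a stretch of 24 bases, longer than miR-125b-5p itself. The longest stretch that Mir99a and Mir100 shared with any of the 2201 other precursors was 16 bases, that of Mir125a 14 bases and that of Mir99b 11 bases.

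Reads that aligned to several places, 2333818 in library 1 and 3480642 in library 2, were assigned to no gene in the deposited tables. A read lying wholly within the shared 24 bases is alike at both Mir125b genes. The precursor of Mir125b-1 is printed with its arms in capitals, and only reads that reach past the shared stretch, such as those of the 3p arm, can belong to it alone.
Mir125b-1: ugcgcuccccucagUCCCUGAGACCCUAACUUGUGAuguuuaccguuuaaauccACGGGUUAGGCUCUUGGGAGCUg
How many of the reads left out were miR-125b-5p was not tested. The tables give counts per gene, not per arm, so the 5p and 3p arms cannot be told apart in any value that follows.

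The genes lie on the plus strand in all 3 loci, in the same order. On chromosome 16, Mir99a (ENSMUSG00000065530.1) lies at 77598936 to 77599000 and Mir125b-2 (ENSMUSG00000065472.1) at 77646273 to 77646343, starting 47337 bases further on. Both lie in introns of the long non-coding gene Mir99ahg in every transcript of it over them, and Mir125b-2 also overlaps an exon of C130023A14Rik. On chromosome 9, Mir100 (ENSMUSG00000093011.1) lies at 41531425 to 41531504 and Mir125b-1 (ENSMUSG00000093354.1) at 41581926 to 41582002, starting 50501 bases further on. Both lie in introns of the non-coding genes 3110039I08Rik and Gm49317, Mir125b-1 also overlaps an exon of Gm28119, and Gm48742 has an exon over Mir100 on the other strand.

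The chromosome 17 locus is far more compact. Mir99b (ENSMUSG00000065396.1) lies at 17830188 to 17830257 and Mir125a, listed in the tables as ENSMUSG00000065479.1 and in M21 as version 2 of that gene, at 17830812 to 17830879, starting 624 bases further on. Mir99b is intronic in the protein-coding gene Spaca6, a sperm acrosome gene. Mir125a is intronic in 2 Spaca6 transcripts and overlaps an exon of 1.

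**Figure D1:**
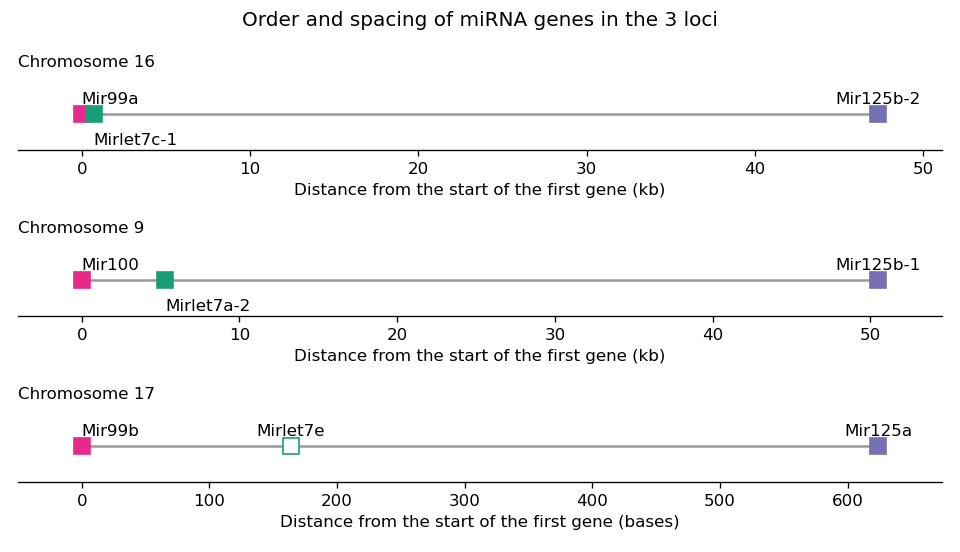
Order and spacing of the miRNA genes in each locus, with the distance from the start of the first gene on the horizontal axis (kilobases for chromosomes 16 and 9, bases for chromosome 17). Squares mark gene starts, not lengths: pink for Mir99 or Mir100 genes, green for let-7 genes and violet for Mir125 genes, with an open square for Mirlet7e, not analysed here. The Mir125 gene starts 47337, 50501 and 624 bases after the first gene on chromosomes 16, 9 and 17.

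The libraries held 4228685 sense-strand counts in miRNA genes in library 1 and 6039889 in library 2, and levels are given as CPM, a gene's counts scaled to that total. The mature sequences are 21 to 24 bases long, so levels were compared between genes without scaling by length. How evenly different sequences were captured in the libraries was not measured, so ratios between genes are ratios of counts. Neural markers were counted, with 12 of 16 listed genes of the tables detected (at least 10 counts in each library). Their summed level was 14445 CPM in library 1, against 15591 CPM in library 2. Mir9-2, Mir124a-1, Mir124a-2 and Mir124a-3 were the listed genes not detected. Reads aligned to several places were assigned to no gene, so sums over the lists do not measure how much of each tissue was present. The libraries stood apart in markers of other tissues. The epithelial list (7 of 7 detected) summed to 5458 CPM in library 1, against 631 CPM in library 2. The mesenchyme list (6 of 8 detected, 1 listed at 0) summed to 22420 CPM in library 1, against 7594 CPM in library 2. Mir143 alone gave 17950 CPM of the mesenchyme sum in library 1 and 3951 CPM in library 2. Endothelial Mir126a had 22011 and 19666 CPM, the blood list (6 of 6 detected) 635 and 420 CPM, and the striated muscle list (2 of 5 detected, 2 listed at 0) 287 and 363 CPM in libraries 1 and 2. In these bulk samples, fewer cells of a type and less RNA per cell cannot be told apart.

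The 6 genes together took 16.1% of the sense counts in library 1 (95% interval by Wilson's method 16.1 to 16.2), against 17.2% in library 2 (17.2 to 17.2). The 3 Mir99 and Mir100 genes gave nearly all of it, 96.2% of the sum of 6 genes in library 1 and 96.0% in library 2. The 3 Mir125 genes gave 3.83% in library 1 and 3.96% in library 2, with reads of miR-125b-5p at the limit described above. Every count of the 6 genes was on the sense strand, with 0 on the other strand in both libraries. Intervals cover counting error only, as PCR-amplified reads without molecular identifiers are not independent molecules.

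Among the miR-99 and miR-100 genes, Mir99a stood highest. Mir99a had 482597 counts, or 114125 CPM, in library 1, against 730253 counts, or 120905 CPM, in library 2, and was the third most abundant miRNA gene in both. Mir100 had 27565 CPM in library 1, against 29067 CPM in library 2, with ranks 6 and 7. Mir99b had 13556 CPM in library 1, against 15313 CPM in library 2, with ranks 13 and 11. The ranges of the 3 genes over the libraries did not overlap. Mir99a took 73.5% of the counts of these 3 genes in library 1 and 73.1% in library 2, Mir100 took 17.8% and 17.6%, and Mir99b took 8.73% and 9.26%.

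The Mir125 genes stood lower, and their order by locus differed. Mir125a, of the locus whose Mir99 gene was lowest, had 17059 counts, or 4034 CPM, in library 1, against 25870 counts, or 4283 CPM, in library 2. Mir125b-2 had 5228 counts, or 1236 CPM, in library 1, against 9019 counts, or 1493 CPM, in library 2. Mir125b-1 had 3831 counts, or 906 CPM, in library 1, against 6277 counts, or 1039 CPM, in library 2. Mir125a thus took 65.3% of the counts of the 3 Mir125 genes in library 1 and 62.8% in library 2. These shares rest on counts that may lack miR-125b-5p, so the order of miR-125a and miR-125b as mature miRNAs cannot be read from them.

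**Figure D2:**
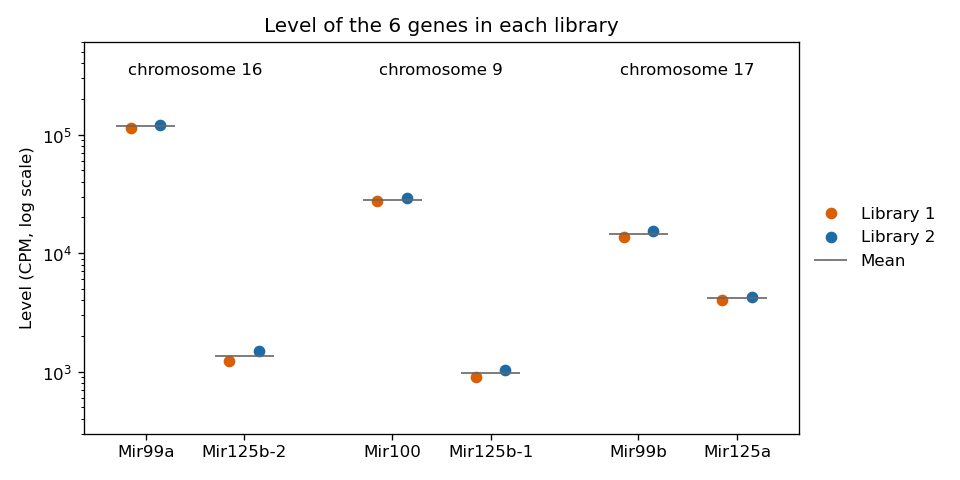
Level of each gene in CPM on a log axis, grouped by locus, with a point for library 1 on the left and for library 2 on the right and a line at their mean. In each locus the Mir99 or Mir100 gene lies above the Mir125 gene, from 114125 and 120905 CPM for Mir99a down to 906 and 1039 CPM for Mir125b-1.

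The full order by level was Mir99a, Mir100, Mir99b, Mir125a, Mir125b-2 and Mir125b-1, and it was the same in both libraries. Means over the libraries were 117515 ± 4794, 28316 ± 1062, 14434 ± 1242, 4159 ± 176, 1365 ± 182 and 973 ± 94.3 CPM (SD, n = 2). No neighbours in this order overlapped between their libraries, and the closest pair was Mir125b-2 over Mir125b-1, with a ratio of 1.36 in library 1 and 1.44 in library 2. Mir99a exceeded Mir100 by a factor of 4.14 in library 1 and 4.16 in library 2, the steadiest of the 6 ratios taken between genes of the same family. The highest and lowest of the 6 lay 126-fold apart in library 1 and 116-fold apart in library 2. These gaps are between counts, and those of the Mir125b genes may lack miR-125b-5p, so they are not gaps between mature miRNAs. The spread between libraries was small beside these gaps, with a coefficient of variation from 3.75% for Mir100 to 13.3% for Mir125b-2.

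By locus, the chromosome 16 pair held 11.5% of all sense counts in library 1 and 12.2% in library 2. The chromosome 9 pair held 2.85% in library 1 and 3.01% in library 2, and the chromosome 17 pair held 1.76% in library 1 and 1.96% in library 2. As shares of the sum of the 6 genes, these came to 71.5% and 71.1% for chromosome 16, 17.6% and 17.5% for chromosome 9 and 10.9% and 11.4% for chromosome 17 in libraries 1 and 2. The order of the loci was that of their Mir99 and Mir100 genes and was the same in both pools.

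The genes of a locus differed in level by very different factors. On chromosome 16, the count ratio of Mir99a over Mir125b-2 was 92.3 in library 1 (95% exact interval 89.8 to 94.9) and 81.0 in library 2 (79.3 to 82.7). On chromosome 9, that of Mir100 over Mir125b-1 was 30.4 in library 1 (29.5 to 31.4) and 28.0 in library 2 (27.3 to 28.7). On chromosome 17, that of Mir99b over Mir125a was 3.36 in library 1 (3.30 to 3.42) and 3.58 in library 2 (3.53 to 3.62). The 3 loci did not overlap in this ratio. The 2 loci with the high ratios are those whose Mir125 gene carries the 5p sequence found in 2 precursors, and the part of unassigned reads in the ratios was not tested.

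Within a locus, the ratio moved slightly between the libraries, by more than counting error in each. Fisher's exact test, two-sided with Benjamini-Hochberg adjustment over the 3 pairs, gave an odds ratio of library 1 over library 2 of 1.14 (1.10 to 1.18, adjusted p = 1.46e-13) on chromosome 16. It gave 1.09 (1.04 to 1.13, adjusted p = 5.33e-05) on chromosome 9 and 0.940 (0.919 to 0.961, adjusted p = 5.03e-08) on chromosome 17. Relative to the Mir99 or Mir100 gene of their locus, the Mir125b genes were thus higher in library 2, by up to 1.14-fold. Mir125a was higher in library 1 relative to Mir99b only. Its own level was higher in library 2 (4034 CPM in library 1, 4283 CPM in library 2). The test needs no library scaling, compares these libraries only, and leaves out the spread between pools.

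**Figure D3:**
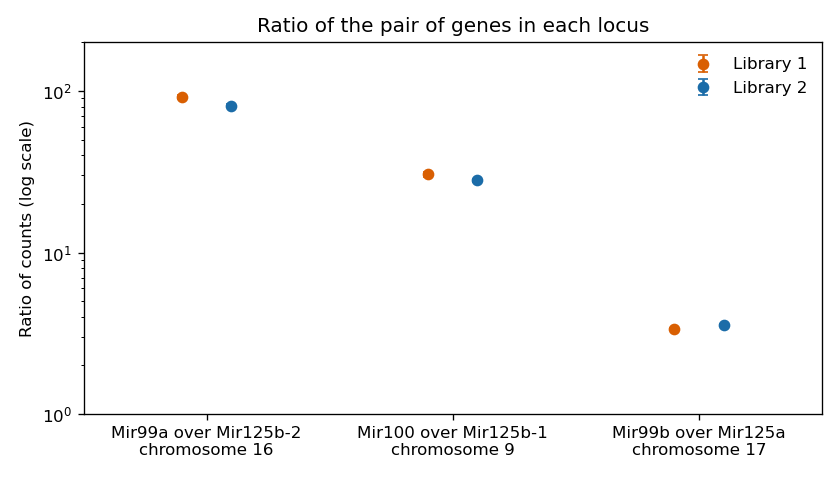
Ratio of counts of the Mir99 or Mir100 gene over the Mir125 gene of the same locus on a log axis, in library 1 (left) and library 2 (right), with 95% exact intervals that are mostly narrower than the points. The ratios were 92.3 and 81.0 on chromosome 16, 30.4 and 28.0 on chromosome 9, and 3.36 and 3.58 on chromosome 17.

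All 6 genes had slightly higher levels in library 2 than in library 1. By an exact binomial test, two-sided with Benjamini-Hochberg adjustment over all 363 detected genes, 6 of 6 were called higher in library 2, against 24.2% of the detected genes, and 0 of 6 higher in library 1, against 25.6%. With so many counts this test calls small gaps. Among the 84 detected genes of at least 1000 CPM, a limit set after the data were seen and passed by 5 of the 6, 52.4% were called higher in library 2. The largest adjusted p of the 6 was 1.45e-14, for Mir125b-1, and the test covers counting error alone. Across the detected genes 93 were called higher in library 1 and 88 in library 2, with TMM-scaled library sizes. Library sizes alone, without TMM scaling, gave 103 and 68. When the markers of other tissues were also left out of those unscaled sizes, a choice made after seeing the data, the counts were 121 and 61.

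The differences were small in size. The log2 ratio of library 1 over library 2 was -0.31 for Mir125b-2 (95% exact interval -0.36 to -0.26), the most distant of the 6 from 0. It was -0.23 for Mir125b-1, -0.21 for Mir99b, -0.12 for Mir125a, -0.12 for Mir99a and -0.11 for Mir100. As folds, library 2 was higher by 1.24 for Mir125b-2, 1.17 for Mir125b-1, 1.16 for Mir99b and 1.08 to 1.09 for the other 3. The median of the 6 was -0.16, against -0.0036 over all detected genes, and they held places 44 to 117 of 363 when genes were ordered from the highest in library 2. By the binomial test, 7 of 7 epithelial markers were called higher in library 1, against 25.6% of the detected genes. So were 5 of the 6 detected mesenchyme markers. The other, Mir140, was called higher in library 2 (log2 ratio -0.053), as the 6 genes were. With library sizes alone, without TMM scaling, the 6 ratios ran from -0.27 to -0.077. When the markers of all non-neural lists were also left out of those unscaled sizes, the 6 ratios ran from -0.24 to -0.043.

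edgeR's exact test set library 1 against library 2 with a dispersion estimated from the differences between these same libraries (coefficient of variation 34.3%). Spread and effect are thus the same difference, and gaps as small as those of the 6 genes could hardly pass. The exact test called 0 of the 6 genes at an adjusted p of 0.05 and 0 at an unadjusted p under 0.05, where the smallest was p = 0.667 for Mir125b-2. It called 8 of the 363 detected genes (2.2%), with 14 at an unadjusted p under 0.05. The count of 0 therefore does not show that the levels were equal, nor how stable the gaps are.

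**Figure D4:**
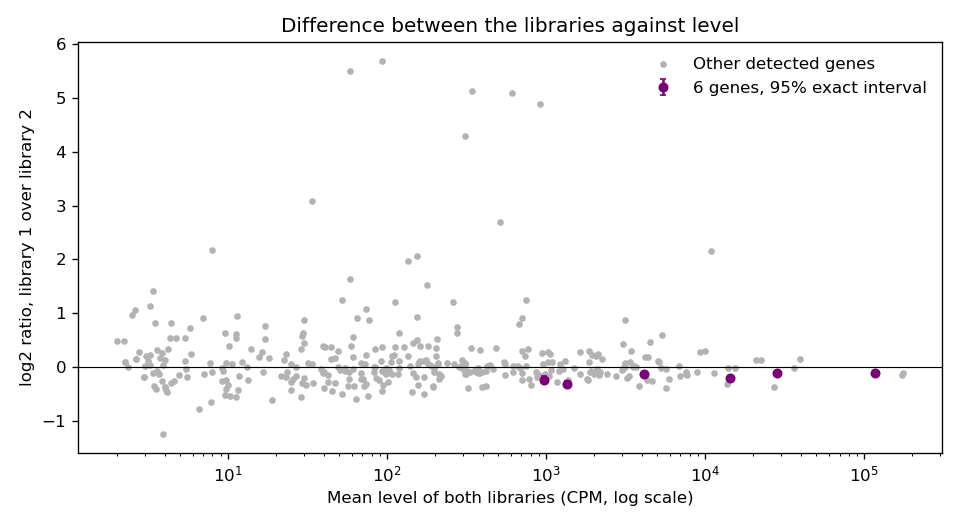
log2 ratio of library 1 over library 2 against the mean level in CPM (log axis) for the 363 detected genes, with the 6 genes in violet and their 95% exact counting intervals, which are mostly narrower than the points. The 6 lie between -0.31 and -0.11, inside the band of other genes of like level, while the genes highest in library 1 lie above 4.

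The let-7 genes of the same loci, whose miRNAs restrain proliferation as cells differentiate, were low beside their neighbours. Mirlet7c-1, 721 bases after the start of Mir99a, had 369 CPM in library 1, against 392 CPM in library 2. Mirlet7a-2, 5291 bases after the start of Mir100, had 191 CPM in library 1, against 182 CPM in library 2. As with Mir125b, the let-7c-5p sequence (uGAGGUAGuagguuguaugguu, seed in capitals) was found in 2 precursors, those of Mirlet7c-1 and Mirlet7c-2. The let-7a-5p sequence (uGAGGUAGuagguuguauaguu) was likewise found in those of Mirlet7a-1 and Mirlet7a-2, so reads of either sequence may be missing from these levels, which was not tested. Mirlet7e of the chromosome 17 locus was not analysed here. Mirlet7c-1 was called higher in library 2 by the binomial test (log2 ratio -0.12, adjusted p = 0.0269), and Mirlet7a-2 was not called (0.032, adjusted p = 0.760).

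The let-7 family as a whole showed no single direction between the libraries. Of its 12 listed genes 10 were analysed here and detected. The binomial test called 2 of them higher in library 1, 3 higher in library 2 and 5 not, with a median log2 ratio of 0.0045. That is near the detected genes at large, of which 25.6% were called higher in library 1 and 24.2% in library 2, with a median of -0.0036. The family summed to 9.72% of sense counts in library 1 and 9.08% in library 2. By these counts it was led by Mirlet7g with 42161 CPM in library 1, against 36961 CPM in library 2. Mirlet7i followed with 36231 and 35793 CPM in libraries 1 and 2. The family sum leaves out Mirlet7e and Mirlet7f-1, not analysed here, and may lack reads of let-7a-5p and let-7c-5p. The order of the let-7 miRNAs as mature sequences therefore cannot be read from these levels. edgeR's exact test called 0 of these let-7 genes, with 0 at an unadjusted p under 0.05, and the difference between the families was not tested.

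Among other miRNAs with the same seeds, Mir351 had counts near those of Mir125b-1. Since the Mir125b-1 counts may lack miR-125b-5p, miR-351 and miR-125b cannot be ranked as mature miRNAs from them. ACCCGUA was carried by 3 mature sequences of the RefSeq table, those of Mir99a, Mir100 and Mir99b. CCCUGAG was also carried by miR-351-5p, miR-6367 and miR-6394. Mir351, on the X chromosome, had 1039 CPM in library 1, against 843 CPM in library 2. It went the other way from the Mir125 genes, with a log2 ratio of 0.27 and a call higher in library 1 (exact binomial test, adjusted p = 1.19e-18), which edgeR's exact test did not make. That difference in direction was not tested. Mir6367 and Mir6394 had 0 counts in both libraries, so that at most 3 counts, or 0.709 CPM in library 1, against 0.497 CPM in library 2, are allowed by counting error.
miR-351-5p: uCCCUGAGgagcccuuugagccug

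miR-10 is shown because it shares a long inner stretch with miR-99 and miR-100 but not their seed.
miR-10a-5p: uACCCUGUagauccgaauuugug
miR-10b-5p: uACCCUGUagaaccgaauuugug
From base 6 of miR-100-5p and base 7 of miR-10a-5p, 11 bases were identical, and miR-99b-5p shared 10 bases with miR-10b-5p from the same places. Mir10a, a Hox cluster gene, had 170601 CPM in library 1, against 178918 CPM in library 2, and Mir10b had 166681 CPM in library 1, against 180660 CPM in library 2. With Mir99a, Mir100 and Mir99b they took 49.3% of sense counts in library 1 and 52.5% in library 2. Their log2 ratios of library 1 over library 2, -0.10 for Mir10a and -0.15 for Mir10b, lay within the range of the 6 genes for Mir10b and just outside it for Mir10a.

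With 2 libraries of 1 group, likeness to other genes could be taken from the level alone, as the gene directly above and below in mean CPM over both libraries. Mir99a stood between Mir10b, at 1.48 times its level, and Mirlet7g, at 0.337 times. Mir100 stood between Mirlet7i (1.27 times) and Mir487b (0.956 times), and Mir99b between Mir30e (1.07 times) and Mir130a (0.969 times). Mir125a stood between Mir182 (1.00 times) and Mir135b (0.917 times), Mir125b-2 between Mir433 (1.00 times) and Mir107 (0.963 times), and Mir125b-1 between Mir181b-2 (1.02 times) and Mir138-1 (0.986 times). The neighbours of the other 5 lay closer than those of Mir99a.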

How the data were processed

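Raw read counts per miRNA gene were deposited by the authors, 1 table per library, on mm10 with annotation M4 as the README text of each sample states. For the aligner and counting tool, names and versions were not given in the sources used here. Per the values, a table holds counts for both strands, the sense strand and the other strand. Sense counts were used. The 4 leading entries name no gene, hold 45.7% of 7925935 reads in library 1 and 47.7% of 11738914 reads in library 2, and were left out. Symbols were matched to GENCODE M21 (GRCm38, as mm10) for 1894 of 1973 identifiers. CPM used the sum of sense counts.

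Genes with at least 10 counts in each library (363) were compared between libraries by an exact binomial test against TMM effective library sizes (edgeR 4.0.16, R 4.3.3), with Benjamini-Hochberg adjustment at 0.05. The test was tried on simulated counts with counting error alone, so the trial does not cover spread between pools. With 1 group of 2 there was no contrast for edgeR's quasi-likelihood test. DESeq2 1.42.0 size factors and edgeR's exact test were among the alternatives. Python 3.11.15, pandas 2.3.3, numpy 2.4.6, scipy 1.17.1 and matplotlib 3.10.9 were used. No genome sequence was used here, so mature sequences (RefSeq, GRCm38.p6) were searched on both strands in GENCODE M21 miRNA precursors in place of the genome.

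The members and lists were chosen with earlier results of these data known. Genes named beside the members were the let-7 genes of the loci, Mir10a and Mir10b, genes sharing a member's 5p seed, and the neighbours of each member in mean CPM. Mirlet7g and Mirlet7i were named with their list as its highest genes, after their values were seen.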

Additional observations from a re-analysis of the deposited data

How the results depend on the processing

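The summed level of the 6 genes, 166761 CPM, was 87336 CPM with all reads as the library size and 256152 CPM without Mir10a and Mir10b in it, as these alternatives change the denominator by construction. Leaving out a library gave 161422 to 172100 CPM. For the locus shares it gave 11.5% to 12.2% (chromosome 16), 2.85% to 3.01% (chromosome 9) and 1.76% to 1.96% (chromosome 17), and for the pair ratios 81.0 to 92.3, 28.0 to 30.4 and 3.36 to 3.58 in the same order. With the binomial test, 6 of 6 genes were called higher in library 2 under library sizes alone, DESeq2 size factors, no filter and at least 100 counts. They were also called with library sizes without the markers of other tissues, and with both strands, where their own counts do not change. In all, 163 to 188 genes were called. A pseudocount of 1 CPM enters the ratios but not the test, so its calls could not differ. With edgeR's exact test, whose spread comes from the same difference between pools, 0 of the 6 and 8 genes in all were called. Over these settings the ratios of the 6 genes stayed between -0.34 and -0.043. The library comparison could not be run without either library. No paired analysis was possible because there is 1 group. With 2 pools the spread rests on 1 difference per gene. The part of multimapping reads in the counts of the Mir125b genes and of Mirlet7c-1 and Mirlet7a-2 was not tested.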

Other observations

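Of 330 detected genes whose precursor holds a mature sequence of the RefSeq table, 59 had an arm found in more than 1 precursor, as Mir125b-1 and Mir125b-2 do. Their median level was 158 CPM, against 119 CPM for the rest of the 330, and both Mir125b genes lay above it. Genes that fell below the detection limit are missing from both medians. The medians therefore cannot show whether a shared arm lowers the counts of a gene.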
